A study of Mus musculus with 2 samples.

Results

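The histone cluster genes are mainly the replication-dependent histone genes, most of which lie in clusters in the mouse genome. They were taken as the protein-coding genes of the GENCODE M21 annotation whose symbol begins with Hist1h, Hist2h, Hist3h or Hist4h, which gave 67 of 21951 protein-coding genes. TET2 binding at these genes was examined by ChIP-seq, in which DNA bound by a protein is collected with an antibody and sequenced. The cells were adipocytes made in culture from Mus musculus: adipose-derived stem cells (ASCs) of inguinal white adipose tissue were grown to passage 3 and differentiated with IBMX, dexamethasone and insulin. The study sequenced 1 library of TET2-bound DNA and 1 of input, the chromatin of the same cell type taken without immunoprecipitation, and both received the same treatment. The labels give neither the strain, age and sex of the animals nor how many were pooled. The paper states that male mice were used for its experiments. The deposited list holds 14103 TET2 peaks called against the input, each with its position and a −log10 p from the authors' peak calling. That value ranks peaks within 1 library and is not a replicate error. Values in the list start at 3.07, whereas the p-value setting stated for the peak calling would leave none below 5, so the list was not cut at that setting and counts are also given for peaks of at least 5. There are no replicates, so no test between conditions was possible, and the exact 95% binomial intervals given for shares cover counting error only. The paper gives a yield for its paired-end sequencing but not the reads of each library, and the list gives no read totals. The depth of each library is therefore unknown. The list also holds no expression values by which the adipocyte label could be checked against marker genes.

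Replication-dependent histone genes supply the core histones H2A, H2B, H3 and H4 and the linker histone H1 for packaging new DNA during S phase. They are short, mostly lack introns, and end their mRNAs in a stem-loop rather than a poly(A) tail, and many H2A and H2B genes lie head to head and share the DNA between them as a promoter. TET2 oxidises 5-methylcytosine to 5-hydroxymethylcytosine, mainly at CpG dinucleotides, and has no DNA-binding domain of its own. Mature adipocytes have left the cell cycle.

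TET2 peaks at the histone clusters were centred on the coding sequences of the genes and not on the DNA between the genes. A peak counted as a promoter peak of a gene when its midpoint was within 1 kb of any annotated transcription start site (TSS) of that gene. By this rule 14 of the 67 histone genes had a promoter peak, or 20.9% (95% interval 11.9% to 32.6%). Over the whole set of protein-coding genes 24.6% had such a peak, so the share of the histone genes was close to the background. With each peak given only to the gene of the nearest TSS, 9 of 67 histone genes (13.4%, 6.33% to 24.0%) and 22.4% of protein-coding genes had a peak. The 14 genes were served by 9 distinct peaks, because 5 peaks lay within 1 kb of 2 histone genes each. Of all protein-coding promoter peaks 9.42% were near 2 or more coding genes, and of those at other single-exon genes with an early coding start 17.3%. All 9 midpoints fell inside the coding sequence of a histone gene. Of all 5170 peaks within 1 kb of a protein-coding TSS, 28.4% had their midpoint in coding sequence. The histone genes are unusual in having their coding sequence directly behind the TSS. Among peaks at other single-exon genes whose coding sequence starts within 100 bp of the TSS, 92 of 104 midpoints (88.5%) were also in coding sequence.

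The DNA under the peak midpoints is shown first, because it carries the finding that the peaks sit on coding sequence. Each stretch is 120 bases centred on the midpoint, written 5′ to 3′ on the coding strand from the RefSeq genome GRCm38.p6, with every CpG in capitals. Genes of all 5 histone types are shown.
Hist1h1c (H1, chr13:23739207-23739326): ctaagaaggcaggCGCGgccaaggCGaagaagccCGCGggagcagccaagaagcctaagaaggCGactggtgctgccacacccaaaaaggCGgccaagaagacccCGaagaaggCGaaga
Hist1h2ak (H2A, chr13:21753510-21753629, minus strand): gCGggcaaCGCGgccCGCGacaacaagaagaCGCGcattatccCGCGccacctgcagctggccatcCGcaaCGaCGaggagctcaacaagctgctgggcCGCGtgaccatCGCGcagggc
Hist1h2bf (H2B, chr13:23573924-23574043, minus strand): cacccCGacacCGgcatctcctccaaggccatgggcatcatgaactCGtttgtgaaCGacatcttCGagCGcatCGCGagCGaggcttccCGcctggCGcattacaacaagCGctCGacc
Hist1h2bc (H2B, chr13:23684357-23684476): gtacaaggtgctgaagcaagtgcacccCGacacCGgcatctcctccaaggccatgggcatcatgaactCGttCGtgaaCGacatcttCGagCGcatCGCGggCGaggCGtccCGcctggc
Hist1h3i (H3, chr13:21783048-21783167, minus strand): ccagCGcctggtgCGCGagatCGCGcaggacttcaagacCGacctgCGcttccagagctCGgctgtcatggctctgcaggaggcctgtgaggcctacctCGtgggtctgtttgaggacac
Hist1h4j (H4, chr13:21735222-21735341): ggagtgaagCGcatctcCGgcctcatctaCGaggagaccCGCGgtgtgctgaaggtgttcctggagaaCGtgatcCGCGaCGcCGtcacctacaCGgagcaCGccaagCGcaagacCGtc
All bases of these stretches lie under the peak of that gene. The stretch of Hist1h1c held 9 CpGs and that of Hist1h2ak held 16. The repeated aag and gcc codons in Hist1h1c encode the lysine and alanine of the linker histone tail. The stretches of Hist1h2bf and Hist1h2bc share an identical run of 50 bases, which shows how alike members of 1 histone type are.

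For comparison, the DNA between the TSSs of 3 head-to-head pairs with a peak is given below on the plus strand, without the bases that belong to annotated transcripts. Capitals mark CCAAT, the CCAAT box bound by NF-Y; TATAAA, the TATA box; and ATTTGCAT, the octamer bound by OCT1, on either strand.
Hist1h2ak/Hist1h2bn (chr13:21753913-21754075): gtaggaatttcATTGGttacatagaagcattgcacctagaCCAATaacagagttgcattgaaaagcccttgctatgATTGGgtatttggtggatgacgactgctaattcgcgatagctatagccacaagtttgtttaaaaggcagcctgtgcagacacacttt
Hist1h2bf/Hist1h2ad (chr13:23574208-23574380): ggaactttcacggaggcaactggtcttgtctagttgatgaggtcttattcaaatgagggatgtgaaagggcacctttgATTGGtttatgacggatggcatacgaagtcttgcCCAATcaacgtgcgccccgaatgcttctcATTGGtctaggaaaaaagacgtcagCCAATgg
Hist1h2ac/Hist1h2bc (chr13:23683960-23684198): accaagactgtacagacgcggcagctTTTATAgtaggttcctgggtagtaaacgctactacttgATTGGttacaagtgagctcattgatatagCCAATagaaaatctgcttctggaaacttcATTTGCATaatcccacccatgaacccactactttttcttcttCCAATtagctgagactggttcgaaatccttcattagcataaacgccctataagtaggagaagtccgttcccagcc
The peak covered 0 bases of the interval of Hist1h2ak and Hist1h2bn, 20 bases of that of Hist1h2bf and Hist1h2ad, and 0 bases of that of Hist1h2ac and Hist1h2bc. The intervals hold 3, 4 and 3 CCAAT boxes in the same order. They hold 3, 7 and 6 CpGs, whereas each of the shorter coding stretches above holds at least 9.

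**Figure D1:**
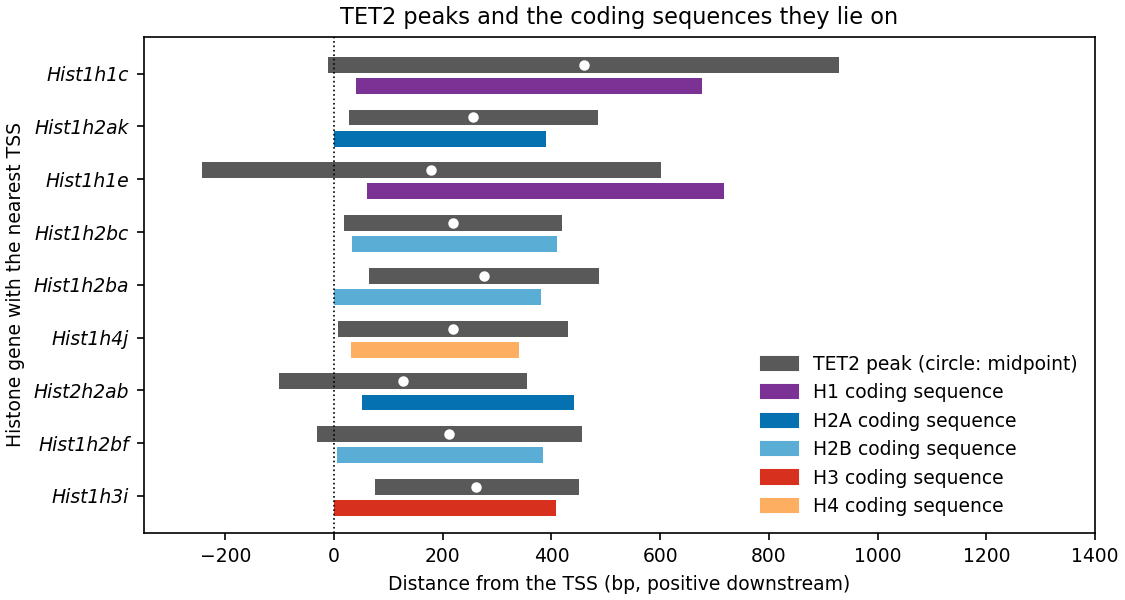
TET2 peaks (grey, with a circle at the midpoint) and the coding sequence of the nearest histone gene (coloured by histone type) against the distance from its TSS in bp, positive downstream, with genes ordered by the authors' −log10 p. All 9 midpoints lie over the coding sequence, and 4 of the 9 peaks reach across the TSS.

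The linker histone genes carried the peak with the largest −log10 p. The peak on Hist1h1c (chr13:23738798-23739737) was 940 bp long, covered the whole coding sequence and had a −log10 p of 17.1. It ranked 27 among the 5170 protein-coding promoter peaks and 2 among the 600 peaks of chromosome 13. The peak on Hist1h1e (chr13:23621957-23622801) was 845 bp long with a −log10 p of 9.09 and covered 82.3% of the coding sequence. These were the longest of the 9 peaks, and the coding sequences of both genes, 636 and 657 bp, are also longer than those of the core histones. The other 4 of the 6 H1 genes had no promoter peak, so H1 stood at 2 of 6 (33.3%, 4.33% to 77.7%).

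The H2A and H2B genes, whose products form the dimers at the outside of the nucleosome core, held 5 of the 9 peaks. They make up 36 of the 67 histone genes, so this count was close to their share of the genes. The peak on Hist1h2ak (chr13:21753342-21753799), also within 1 kb of Hist1h2bn, had a −log10 p of 9.41. That on Hist1h2bc (chr13:23684217-23684618), also within 1 kb of Hist1h2ac, had 8.68. The peak on Hist1h2ba (chr13:23933670-23934091), also within 1 kb of Hist1h2aa, had 8.06, and these genes encode the testis-specific forms of H2B and H2A. That on Hist1h2bf (chr13:23573741-23574227), also within 1 kb of Hist1h2ad, had 5.48. Outside Hist1, the only peak was at Hist2h2ab (chr3:96219764-96220220) with a −log10 p of 7.16, and its midpoint was also within 1 kb of Hist2h2ac and 283 bp upstream of a TSS of Bola1, which encodes a mitochondrial protein. By type, 6 of 18 H2A genes (33.3%, 13.3% to 59%) and 4 of 18 H2B genes (22.2%, 6.41% to 47.6%) had a promoter peak. The H2A share rested on the sharing of peaks: with each peak given only to the gene of the nearest TSS, H2A stood at 2 of 18 (11.1%).

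The H3 and H4 genes, whose products form the central tetramer of the nucleosome, had 1 peak each. Hist1h4j (chr13:21735072-21735493) had a −log10 p of 7.34 and its coding sequence was covered completely. Hist1h3i (chr13:21782921-21783295) had the smallest −log10 p of the 9 peaks, 4.12, and ranked 4968 of the 5170 promoter peaks. The shares were 1 of 12 H3 genes (8.33%, 0.211% to 38.5%) and 1 of 13 H4 genes (7.69%, 0.195% to 36.0%). Together H3 and H4 stood at 2 of 25 (8%, 0.984% to 26.0%) and H2A and H2B at 10 of 36 (27.8%, 14.2% to 45.2%). The intervals overlap, and genes that share a peak are not independent, so the shares of the types cannot be told apart at this number of genes.

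**Figure D2:**
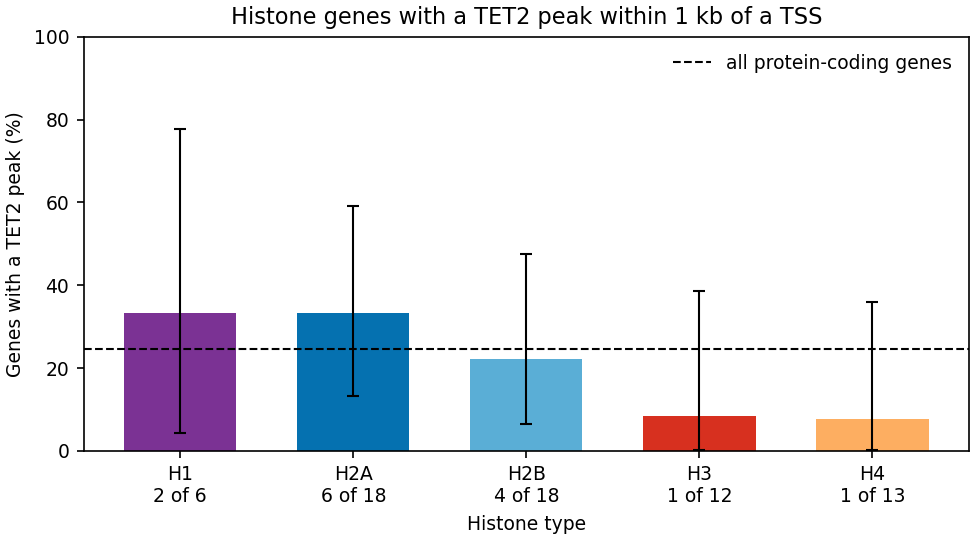
Share of histone genes with a TET2 peak midpoint within 1 kb of a TSS, in percent, by histone type, with exact 95% binomial intervals (bars) and the share of all protein-coding genes (dashed line, 24.6%). The interval of each of the 5 types contains the dashed line.

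Most of the histone peaks were in the largest cluster. Hist1 on chromosome 13 had 12 of 54 genes with a promoter peak (22.2%, 12.0% to 35.6%) from 8 peaks. Hist2 on chromosome 3 had 2 of 10 (20%, 2.52% to 55.6%) from 1 peak. Neither the 2 genes of Hist3 on chromosome 11 nor the single gene of Hist4 on chromosome 6 had a peak (upper limits of the exact intervals 84.2% and 97.5%), and so few genes cannot show a difference. Hist1 falls into 4 blocks, separated where neighbouring histone genes are more than 100 kb apart. The blocks of 18 and 29 genes held 3 and 4 peaks over 121.8 and 233.4 kb, or 24.6 and 17.1 peaks per Mb, against 4.98 per Mb over chromosome 13. The block of 5 genes had none, and the Hist1h2ba and Hist1h2aa pair formed a block of its own. Hist2 had 19.9 peaks per Mb over 50.3 kb, against 4.57 over chromosome 3. No peak inside any of the blocks lay outside the rule: every one was a promoter peak of a histone gene. Histone genes are packed closely in these blocks, so the peaks per Mb follow the density of genes as well as their share with a peak.

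**Figure D3:**
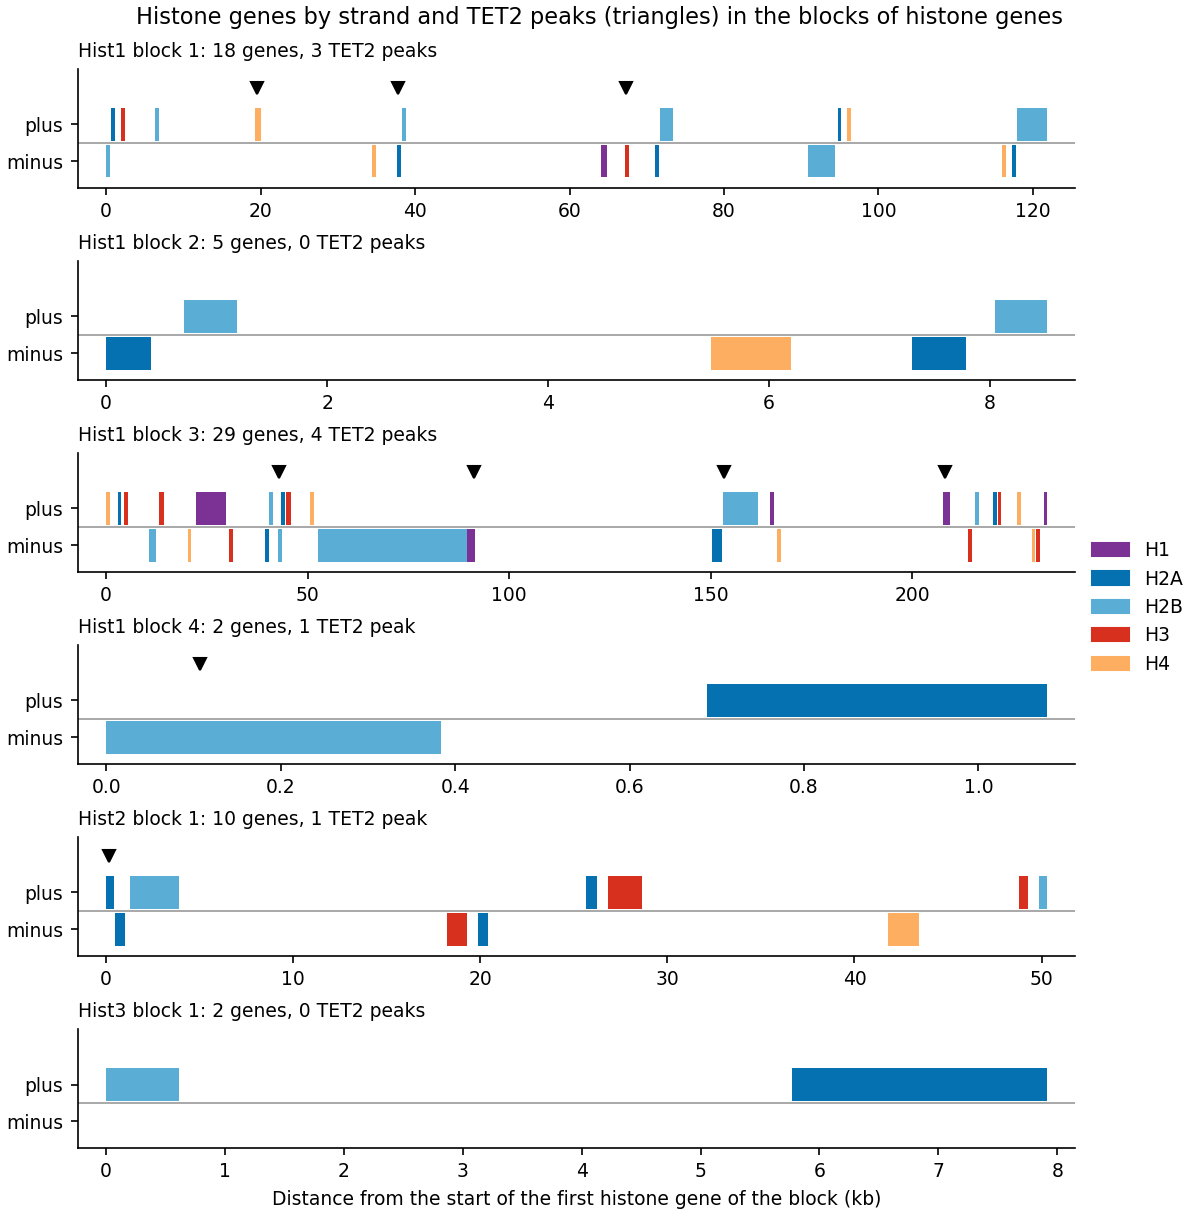
Histone genes in the blocks with more than 1 gene, drawn by strand and coloured by histone type, against the distance in kb from the start of the block, with TET2 peaks as triangles. The block with 18 genes has 3 peaks, that with 29 genes has 4, and the remaining peaks are at Hist1h2ba and at Hist2h2ab.

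Head-to-head pairs were examined because H2A and H2B genes share the DNA between them. There were 13 pairs of histone genes on opposite strands with their TSSs 176 to 660 bp apart (median 268 bp), 12 of them an H2A and an H2B gene and 1 an H2B and an H3 gene. A shared peak was found at 4 pairs (30.8%, 9.09% to 61.4%), all H2A with H2B. At the Hist2h2ac and Hist2h2be pair the rule reached Hist2h2ac only, and 8 pairs had no peak. In none of the 4 pairs did the midpoint lie between the TSSs: it was in Hist1h2ak, Hist1h2bf, Hist1h2bc or Hist1h2ba, that is in 1 H2A and 3 H2B genes. At Hist1h2bf and Hist1h2ad the peak covered 31 of the 184 bases between the TSSs, and at the other 3 pairs it covered 0 bases. At these pairs the peak was centred on 1 gene, with the TSS of the other gene 397 to 581.5 bp from the midpoint. Of the 26 genes in a pair 9 had a promoter peak (34.6%, 17.2% to 55.7%), and of the 41 others 5 (12.2%, 4.08% to 26.2%), against 24.6% of all protein-coding genes, and shared peaks count here once for each gene. Given only to the gene of the nearest TSS, peaks were present at 4 of the 26 (15.4%, 4.36% to 34.9%) and again at 5 of the 41.

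The midpoints lay 127 to 459.5 bp downstream of the nearest histone TSS, with a median of 218.5 bp. Of all protein-coding promoter peaks, 70.9% were downstream, with a median of 100 bp. For the other single-exon genes with an early coding start the median was 288.5 bp. The peaks covered 78.2% to 100% of the coding sequence beneath them, and 5 of the 9 began downstream of the TSS. The median length was 457 bp for the histone peaks and 467 bp for all promoter peaks. The annotated TSS is the first coding base in 11 of the 67 genes, among them Hist1h2ak, Hist1h2bn, Hist1h3i, Hist1h2ba and Hist1h2aa, and distances for these genes count from there.

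The −log10 p of the histone peaks lay within the range of other promoter peaks. The median −log10 p was 8.06 (range 4.12 to 17.1), and the median over all protein-coding promoter peaks was 6.83 with quartiles of 5.68 and 8.37. A −log10 p of at least 5 was reached by 8 of the 9 peaks and by 89.1% of all promoter peaks, and one of at least 10 by Hist1h1c alone and by 10.7%. Counted as genes, a peak of at least 5 was present at 13 of 67 histone genes and at 22.1% of protein-coding genes, and one of at least 10 at 1 of 67 and at 2.71%.

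**Figure D4:**
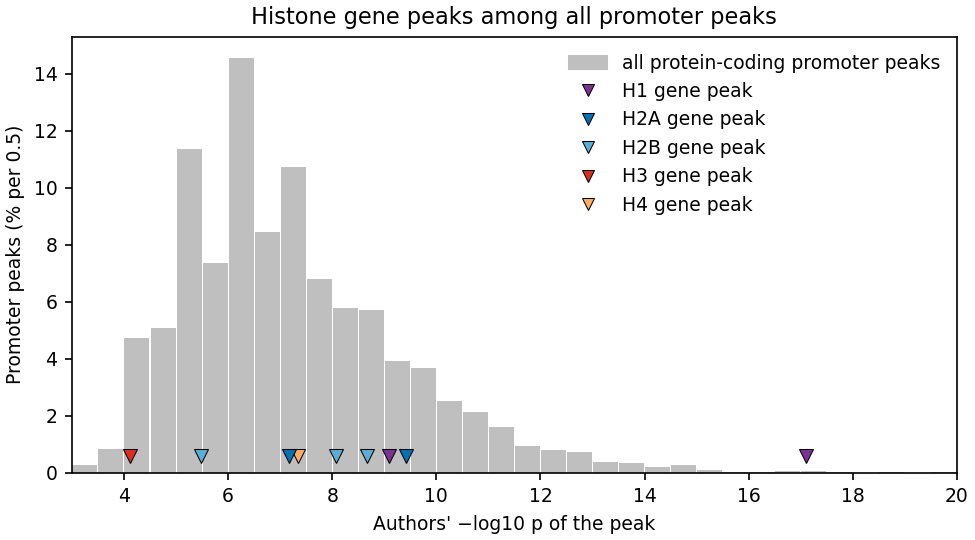
Distribution of the authors' −log10 p over all peaks within 1 kb of a protein-coding TSS (grey, percent of peaks per bin of 0.5, drawn up to 20) with the 9 histone peaks as triangles coloured by the type of the gene under them. All triangles but that of Hist1h1c at 17.1 lie between 4.12 and 9.41.

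The width of the window changed the count of histone genes but not that of distinct histone peaks. The members just inside 1 kb were Hist2h2ac at 888 bp, Hist1h2aa at 581.5 bp, Hist1h2bn at 552.5 bp, Hist1h2ac at 469.5 bp and Hist1h1c at 459.5 bp. Those just outside were Hist2h2be at 1127 bp, Hist1h2be at 1255 bp, Hist1h3d at 1779 bp, Hist1h1b at 2483 bp and Hist1h2bg at 2588 bp. With a window of 500 bp, the count was 11 histone genes (16.4%) and the share of protein-coding genes 21.6%. With 2 kb these were 17 (25.4%) and 26.9%, and with 3 kb 20 (29.9%) and 28.5%. These windows held the same number of distinct histone peaks, 9, so a wider window added neighbours of peaks already counted. The 53 genes without a promoter peak were 1127 to 50635 bp from the nearest peak midpoint (median 17623.5 bp), and 36 of them were more than 10 kb away.

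The number of TSSs differed between the histone genes and the background. A single TSS is annotated for 63 of the 67 histone genes (94.0%) and for 22.3% of all protein-coding genes. Of the 4895 protein-coding genes with 1 TSS, 712 (14.5%, 13.6% to 15.6%) had a promoter peak. Of 838 other single-exon genes with a coding start within 100 bp of the TSS, 128 did (15.3%, 12.9% to 17.9%). Both shares lie inside the interval of the histone genes.

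CpG was more frequent in the coding sequence than upstream of the TSS as a median over the 67 histone genes, though not in the H1 genes. The CpG observed/expected ratio, which is 1 where CpG is as frequent as the base composition allows, had a median of 0.715 in the 250 bp upstream of the TSS and 0.930 in the coding sequence of the 67 genes. Upstream of all protein-coding genes the median was 0.486. In the 500 bp downstream of the TSS it was 0.588 over all protein-coding genes and 0.901 over the histone genes. The ratio was thus higher downstream than upstream in both groups. Coding ratios rose in the order H1 0.643, H2B 0.899, H2A 0.914, H3 0.981 and H4 1.08. In the H1 genes the upstream median was 0.675, above the coding one. Upstream and coding ratios were 1.07 and 0.730 at Hist1h1c and 1.12 and 0.781 at Hist1h1e. Genes with and without a promoter peak had coding ratios of 0.909 and 0.947 and upstream ratios of 0.647 and 0.745. Split instead by whether a gene's own coding sequence held a peak midpoint, coding ratios were 0.870 in the 9 such genes and 0.941 in the 58 others. Upstream ratios were then 0.720 and 0.714. The 9 peaks held 28 to 68 CpGs each, or a median of 8.53 per 100 bp, and all promoter peaks held 8.55. GC content was 60.9% in the histone peaks and 66.1% in all promoter peaks.

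**Figure D5:**
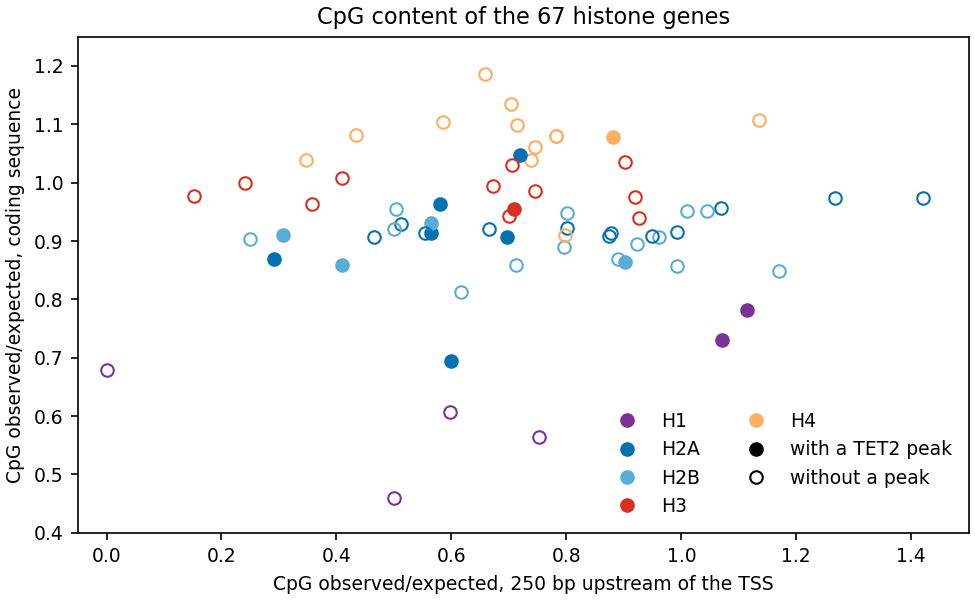
CpG observed/expected ratio of the coding sequence against that of the 250 bp upstream of the TSS for the 67 histone genes, coloured by type and filled where the gene has a TET2 promoter peak. Coding ratios are lowest in H1 genes (median 0.643) and highest in H4 genes (1.08), and filled points are spread over the upstream ratios from 0.291 to 1.12.

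Promoter motifs were counted in the same 250 bp on both strands. The TATA box, TATAAA, was present at 34 of 67 histone genes (50.7%) and at 11.5% of all protein-coding genes. It was present at 12 of the 14 genes with a peak and at 22 of the 53 without. Over all protein-coding genes the order was the other way, 7.46% with a peak and 12.8% without. The 14 genes rest on 9 distinct peaks, and whether the TATA box goes with a peak was not tested. The CCAAT box was present at 54 genes (80.6%, against 36.0%), including all 18 H2A and all 18 H2B genes but 4 of 13 H4 genes. The octamer was present at 7 H2A and 8 H2B genes and at none of the H1, H3 and H4 genes (22.4%, against 1.45%). AAACACA, the H1 box, was present at 4 of 6 H1 genes, Hist1h1c and Hist1h1e among them, and at 11.9% of the histone genes against 5.66%. Windows of the 2 genes of a pair overlap, so they hold some of the same motifs. A match describes the letters and is no evidence of binding.

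Histone genes of 1 type resemble each other, and reads from such copies cannot always be placed. Of all 50-base words within 500 bp of the TSS, a median of 29.2% (0.840% to 57.5%) occurred again elsewhere in the genome for the genes with a peak and 29.3% (0 to 100%) for those without. In 13 genes at least 50% of the words were repeated. Of these 1 had a promoter peak, Hist1h2ad, through the peak centred on Hist1h2bf. Within the peaks, 14.5% (Hist1h1c) to 91.8% (Hist1h2bc) of the words were repeated. The peaks on Hist1h1c and Hist1h1e had 0 near-identical copies in the genome and that on Hist1h2ak had 20, where a copy is a match of at least 100 bp and 90% identity. A near-identical copy of the 250 bp upstream was found for 12 genes, of which 1, Hist1h4j, had a peak. How the authors' aligner treated reads with several places is not given in the sources used here, and its part in which histone genes have a peak was not tested.

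Genes that work with the histone clusters were counted by the same rule. Of 17 replication-independent histone genes, which supply histones outside S phase, 7 had a promoter peak (41.2%, 18.4% to 67.1%). These were H2afj with a −log10 p of 8.06, H1f0 and H2afx with 6.76 each, H2afy2 with 6.59, H2afy with 6.49, H3f3a with 5.78 and H3f3b with 5.32. H2afj, an H2A variant gene, is the neighbour of Hist4h4, and its peak was the nearest to that gene at 4155.5 bp. Of 13 genes for transcription of histone genes and processing of their mRNA, 5 had a promoter peak (38.5%, 13.9% to 68.4%). The largest −log10 p were 11.7 at Cpsf3, the endonuclease that cuts the histone pre-mRNA, and 9.51 at Ccne2, an E-type cyclin of S phase entry. Npat, the coactivator of histone gene transcription, and Slbp, which binds the stem-loop, had no promoter peak. Of 15 histone chaperone genes 7 had one (46.7%, 21.3% to 73.4%), led by Nap1l4 with 9.66, a chaperone of H2A and H2B, and Ubn1 with 8.64, a subunit of the HIRA complex. Each of the 3 intervals contains 24.6%, the share of all protein-coding genes.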

How the data were processed

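TET2 and input libraries of adipocytes differentiated from ASCs were sequenced by the authors, who aligned the reads with Bowtie and called peaks against the input with MACS2 2.1.0, per the submitters' processing notes. The deposited list gives each peak's interval and the −log10 p computed by the authors' peak caller, which was used to describe, rank and filter peaks. The stated p-value setting would leave no value below 5, but the list reaches down to 3.07. The notes name mm10 (GRCm38) and the methods GRCm39, and positions are given on mm10 as 1-based coordinates. Peak summits were not used here, so peaks were placed by midpoint. TSSs were those of GENCODE M21. Members and lists were chosen with earlier results of these data known. Named genes were members at peaks outside Hist1, at up to 10 Hist1 peaks by −log10 p, which took in all 8, and at shared peaks, the 5 members on each side of 1 kb, and up to 5 genes per related list by −log10 p; H3f3a, H3f3b, Hist4h4, Npat, Slbp, Bola1, Abt1 and Pom121l2, which are outside this rule, were named after their values were seen. Shares have exact Clopper-Pearson 95% intervals. Copies were found with blastn 2.17.0 against GRCm38.p6. Computation used pandas 2.3.3, scipy 1.17.1, numpy 2.4.6 and matplotlib 3.10.9 in Python 3.11.15. The assignment of peaks was tested on simulated data with 200 planted promoter peaks among 21951 genes, of which 200 were recovered. Other windows, thresholds, annotations and member sets were tried as alternatives. The input was used only as the control of the authors' peak calling.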

Additional observations from a re-analysis of the deposited data

How the results depend on the processing

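The results were recomputed under 10 alternatives, which gave 150 values, of which 132 stayed within the 95% interval of the reported share or within 1.5 times the reported count or median. Some intervals were wide, as for Hist3 (0 to 84.2%), Hist4 (0 to 97.5%) and H1 (4.33% to 77.7%). A share there could move far and still count as unchanged. No median distance changed sign. With a −log10 p of at least 10 only Hist1h1c kept a peak, by construction of the threshold: 1.49% of all histone genes and 1.85% of Hist1 had a peak, 0% of H2A, H2B, H3, H4 and Hist2 genes and 0% of head-to-head pairs did, 1 distinct and 0 shared peaks were left, the −log10 p was 17.1 and the midpoint 459.5 bp. With at least 5, the H3 share was 0%. With each peak given to the nearest gene only, no peak was shared (0), the pair share was 0% and the H2A share was 11.1%. Under the same setting, in a comparison added after seeing the data, 15.4% of genes in a pair had a peak. Within 500 bp, 2 peaks were shared, at Hist1h2bf and Hist1h2ad and at Hist1h2bc and Hist1h2ac. Among the 55 genes without an upstream copy the H4 share was 0%, since Hist1h4j was left out. With RefSeq transcripts, matched for 67 of 67 genes, the count stayed 14 genes against 23.0% of all genes. With any base of the peak within 1 kb it was 16 against 25.3%, and with 1 TSS per gene 14 against 20.1%. Over the 10 alternatives the count of distinct peaks was 9 in all but 3, namely 8 at a −log10 p of at least 5 and among genes without a copy, and 1 at a −log10 p of at least 10. No paired analysis was possible because the TET2 and input groups hold 1 library each, for which reason no replicate could be left out either. The unknown depth of each library and the single TET2 library limit every value: a gene without a called peak is not shown to lack TET2.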

Other observations

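The stretch of chromosome 13 from the first to the last Hist1 gene, 2.22 Mb long, also holds 49 other protein-coding genes, 36 of them Vmn1r genes for pheromone receptors of the vomeronasal organ. None of the Vmn1r genes had a promoter peak, and 2 of the other 13 genes did, Abt1 with a −log10 p of 4.12 and Pom121l2 with 5.32. The stretch held 16 peaks, 8 of them promoter peaks of histone genes.

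Histone genes whose annotated model begins at the start codon had a promoter peak in 5 of 11 cases (45.5%, 16.7% to 76.6%), and those with an annotated 5′ UTR in 9 of 56 (16.1%, 7.62% to 28.3%). Of all protein-coding genes 24.6% had one, a share inside both intervals. The 5 genes share 3 peaks, and the intervals overlap. Hist1h2bn and Hist1h2aa counted only through the peaks centred on Hist1h2ak and Hist1h2ba. Among the 4 peaks shared by H2A and H2B genes, that over Hist1h2bc had 91.8% repeated 50-base words and that over Hist1h2ba 34.9%. The longest run in common between their coding stretches of 120 bases around the midpoint was 19 bases, against 50 between Hist1h2bc and Hist1h2bf. These stretches start at different places in the coding sequences, so the run lengths do not measure how alike the genes are.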
